A study of Homo sapiens with 6 samples.

Results

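In 5 of 147 microRNA (miRNA) hairpins, the most frequent 5′ end of the miRNA made by full-length DICER was listed away from the reference position, without mir-29a and mir-16-2, which also carry such an entry. The 5 hairpins are hsa-mir-10399, hsa-mir-145, hsa-mir-324, hsa-mir-425 and hsa-mir-203a, each listed for the miRNA of its 3′ arm (3p) and each the only hairpin of that miRNA in the table. They were chosen from a deposited column for the main 5′ end with DICER-WT, so their offsets, and every other value from the DICER-WT libraries, are given as a description and carry no test. The other 140 hairpins have the entry 0. The entries are whole numbers, so the hairpins just inside the limit are those moved by 1 nucleotide (nt), mir-425 and mir-203a, and those just outside it lie at 0.

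The cells were HCT116 DICER-KO, a human colorectal carcinoma line without its own DICER, transfected with a plasmid for DICER-WT (pXG-DICER-WT, 3 samples) or for DICER without its helicase domain (pXG-DICER-delHelicase, 3 samples). All 6 samples thus share the knockout and carry a transfected enzyme, and the labels name neither separate cultures nor the number of knockout clones. Small RNAs were sequenced. The deposited table gives 1 variation score per hairpin and construct and no value per sample, so neither a spread between samples nor a test between the constructs could be had, and the depth behind a score is unknown.

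DICER cuts a precursor hairpin near its apical loop and thereby sets the 5′ end of the 3p miRNA. Bases 2 to 8 from that end form the seed, which pairs with target messenger RNAs, so that an end moved by a single base gives another seed and another set of possible targets. Products of a hairpin that differ in their ends are called isomiRs. The helicase domain of DICER lies on the loop side of the bound precursor.

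The sequences below show what each listed offset does to the 3p miRNA. The table gives neither the unit nor the reference of the offset. It was read here as nucleotides from the annotated 5′ end in RefSeq (GRCh38.p14), with positive values further toward the 3′ end of the hairpin, and the 3′ end was kept as annotated. All main DICER-WT ends and their genomic bases given below were derived with this reading and are not listed as such. All 5 miRNAs were found in their deposited hairpins. Each miRNA is given with its annotated end and then with its main DICER-WT end, and capitals mark the seed.

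miR-10399-3p, annotated end: cUCUCGGAcaagcuguagguc
miR-10399-3p, main DICER-WT end (-4): uACUCUCUcggacaagcuguagguc
miR-145-3p, annotated end: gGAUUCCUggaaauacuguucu
miR-145-3p, main DICER-WT end (2): aUUCCUGGaaauacuguucu
miR-324-3p, annotated end: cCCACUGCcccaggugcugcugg
miR-324-3p, main DICER-WT end (3): aCUGCCCCaggugcugcugg
miR-425-3p, annotated end: aUCGGGAAugucguguccgccc
miR-425-3p, main DICER-WT end (-1): cAUCGGGAaugucguguccgccc
miR-203a-3p, annotated end: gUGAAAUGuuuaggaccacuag
miR-203a-3p, main DICER-WT end (1): uGAAAUGUuuaggaccacuag

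The offsets went in both directions. For mir-10399 and mir-425 the main end lay toward the loop, which lengthened the miRNA, counted to its annotated 3′ end, from 21 to 25 nt and from 22 to 23 nt. For mir-145, mir-324 and mir-203a it lay deeper in the stem, and the lengths went from 22 to 20, from 23 to 20 and from 22 to 21 nt. The 3p miRNAs of the 125 hairpins with offset 0 that could be located were 19 to 24 nt long, with a median of 22 nt. The span of mir-10399 thus lay above that range, if its 3′ end was the annotated one.

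Each of the 5 annotated seeds occurred in RefSeq's human miRNAs only in the miRNA it belongs to. The seed at the main DICER-WT end of miR-324-3p, CUGCCCC, was also that of 1 other human miRNA, miR-1913. The new seeds of miR-10399-3p, miR-145-3p, miR-425-3p and miR-203a-3p were those of no listed miRNA. The first 18 bases from either end were found in no other hairpin of the table or of RefSeq.

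The moved ends also changed the first base of the miRNA, the base that Argonaute holds in a pocket known to favour U and A. At the annotated end 1 of the 5 members began with A or U (miR-425-3p), and at the main DICER-WT end 4 of 5 did, with U in miR-10399-3p and miR-203a-3p and A in miR-145-3p and miR-324-3p. miR-425-3p went the other way, from A to C. Among the 125 located hairpins with offset 0, 91 annotated 3p miRNAs began with A or U (72.8%, exact Clopper-Pearson 95% interval 64.1 to 80.4, which treats hairpins as independent). The 4 of 5 (80%) at the main DICER-WT end were near that share, and the 1 of 5 at the annotated end was below it. With 5 members neither count is read as a result. If the sign of the offset were the opposite, 3 of the 5 would begin with A or U. The ends of mir-29a and mir-16-2, both moved by 1 nt toward the loop, went from U to C and from C to A.

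With DICER-WT the members had high variation scores, a deposited measure with no stated formula, which ran from 0 to 1.09 over the whole table. Their DICER-WT scores ran from 0.374 to 0.964 with a median of 0.698, against a median of 0.0706 and a highest value of 0.685 in the 140 hairpins with offset 0. The 3 members moved by 2 nt or more ranked 1 to 3 of 147. A score that counts distance from position 0 would itself be raised by a moved main end, and whether this one does is not given.

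**Figure D1:**
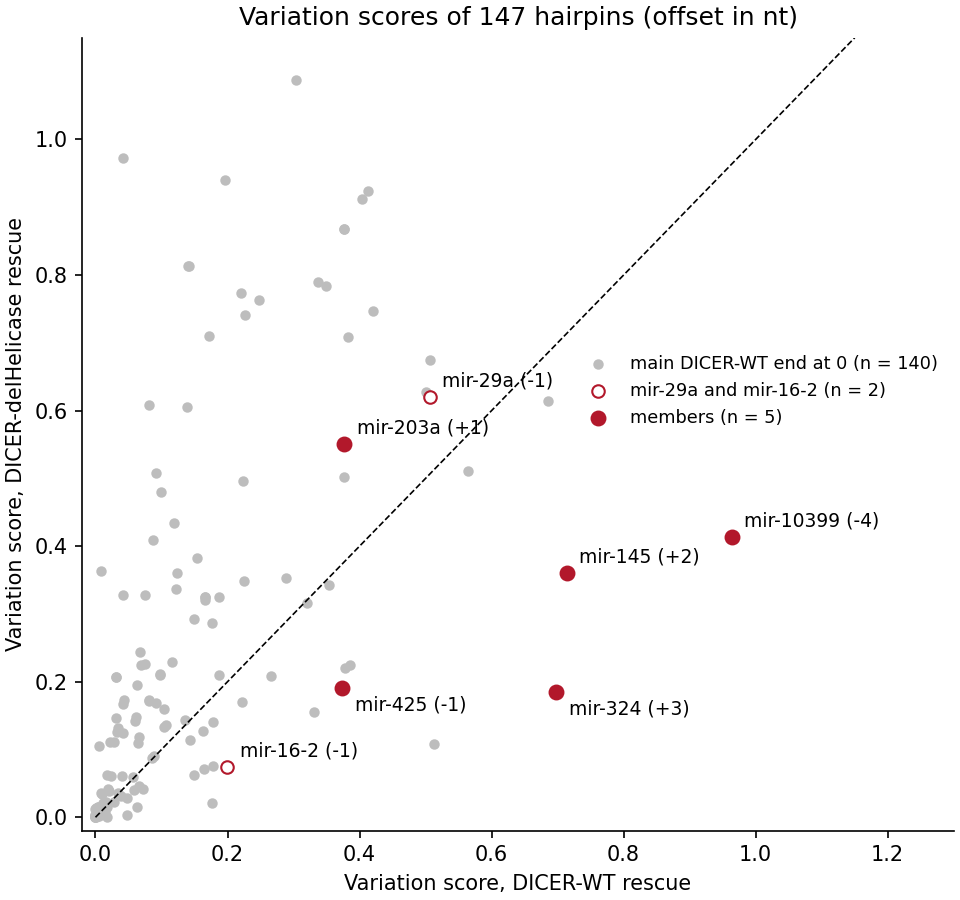
Variation score with DICER-WT (x axis) and with DICER-delHelicase (y axis), no unit, for 147 hairpins, 1 point each; the dashed line marks equal scores and signed numbers give the offset in nt. The 4 members mir-10399, mir-145, mir-324 and mir-425 lie below the line and mir-203a lies above it.

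Without the helicase domain 4 of the 5 members had a lower score, and in each of these 4 it was lower by more than 0.1. Over all hairpins 25.9% had a lower score with DICER-delHelicase and 7.48% were lower by at least 0.1. Since the members were chosen on the DICER-WT libraries, which also enter this difference, nothing is read from the excess. The median change of the members, delHelicase minus WT, was -0.353, against 0.0297 in the hairpins with offset 0.

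mir-10399 had the largest offset. It lies on the minus strand of chromosome 7, from 139044100 to 139044157, in the 3′ UTR of ZC3HAV1, the gene of a zinc finger antiviral protein. The annotated 5′ end of its 3p miRNA is base 139044120 and the main DICER-WT end is base 139044124. DICER-WT gave a score of 0.964 and DICER-delHelicase one of 0.413, a change of -0.551. This was the highest DICER-WT score and the lowest change of the table, and even so 28 hairpins with offset 0 had a higher delHelicase score.

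mir-324 is a precursor whose DICER cut site is known to move when terminal uridylyl transferases add U to its 3′ end. It lies on chromosome 17 from 7223297 to 7223379 (minus strand), opposite an intron of ACADVL. The annotated 3p end is base 7223330 and the main DICER-WT end base 7223327. In the deposited hairpin below, capitals mark the 3p miRNA from the main DICER-WT end to its annotated 3′ end.

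mir-324: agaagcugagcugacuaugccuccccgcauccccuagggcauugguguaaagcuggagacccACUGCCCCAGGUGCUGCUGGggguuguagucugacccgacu

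mir-324 scored 0.698 under DICER-WT and 0.185 under DICER-delHelicase. The change of -0.512 was the second lowest of the table, and the remaining score was 26.6% of that with DICER-WT, the smallest remainder among the members.

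mir-145, whose 5′ arm gives the smooth muscle miRNA miR-145-5p, lies within an intron of CARMN, a long non-coding RNA gene, on chromosome 5 from 149430646 to 149430733 (plus strand). With the listed offset of 2 read as above, its 3p miRNA began 2 nt downstream of the annotated base 149430699, at 149430701.

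mir-145: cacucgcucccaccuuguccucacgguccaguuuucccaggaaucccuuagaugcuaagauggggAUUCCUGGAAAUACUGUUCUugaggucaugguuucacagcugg

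Here the DICER-WT score was 0.714 and the delHelicase score 0.361, a change of -0.353. mir-143, annotated in an exon of the same host gene, had offset 0 and scores of 0.0177 and 0, so that a high score was not shared by this pair.

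mir-425 lies in an intron of DALRD3 on chromosome 3 from 49020148 to 49020234 (minus strand), next to mir-191, which the table used here does not list. Its main DICER-WT end, base 49020181, was 1 nt closer to the loop than the annotated base 49020180.

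mir-425: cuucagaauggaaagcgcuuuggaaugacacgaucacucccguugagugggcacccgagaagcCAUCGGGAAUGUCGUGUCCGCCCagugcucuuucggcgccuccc

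The scores were 0.374 and 0.191, a change of -0.183. This was the lowest DICER-WT score of the members, and 14 hairpins with offset 0 scored higher with DICER-WT.

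mir-203a gives miR-203a-3p, known for its role in the differentiation of skin epithelium, and was the only member that scored higher without the helicase domain. It lies on chromosome 14 from 104117405 to 104117514 (plus strand), and mir-203b is annotated within the same interval on the opposite strand, from 104117418 to 104117503. The main DICER-WT end was base 104117470, 1 nt into the stem from 104117469.

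mir-203a: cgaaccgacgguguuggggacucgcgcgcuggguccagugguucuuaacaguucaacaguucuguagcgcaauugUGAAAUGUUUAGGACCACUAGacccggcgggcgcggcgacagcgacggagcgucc

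Its DICER-WT score of 0.377 stood against 0.551 without the helicase domain, a change of 0.174. A higher score was also listed for 72.1% of all hairpins, and a rise of at least 0.1 for 37.4%. The antisense hairpin mir-203b, with offset 0, had a lower level in both columns, 0.0626 and 0.196, and a change of 0.133 in the same direction.

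**Figure D2:**
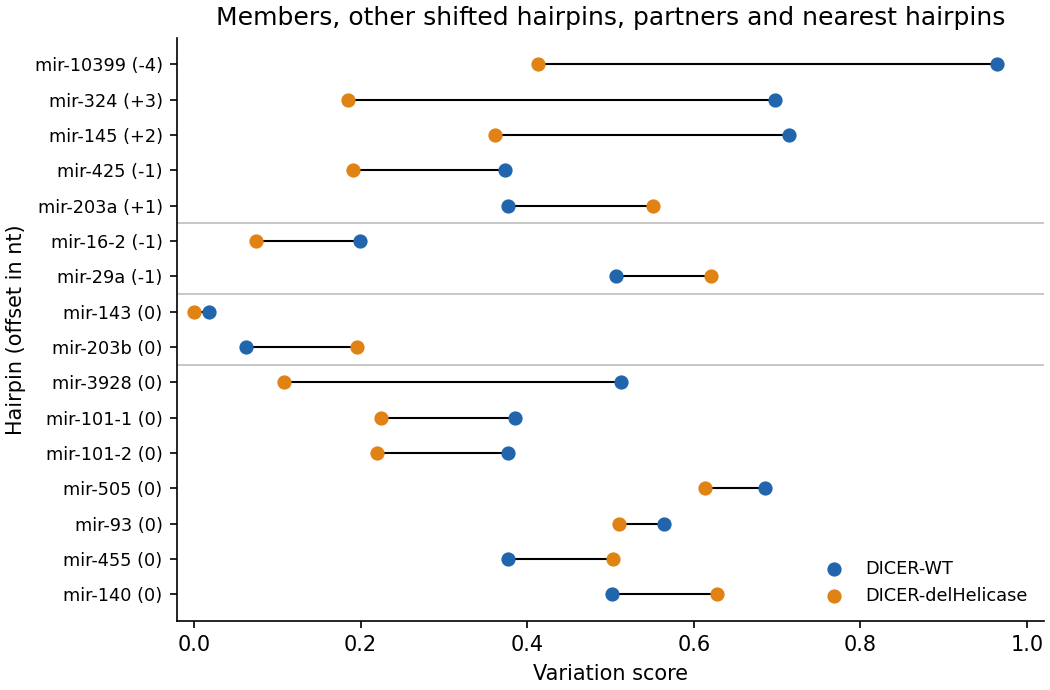
Variation score (x axis, no unit) with DICER-WT (blue) and DICER-delHelicase (orange), joined by a line for each hairpin; grey lines part, from the top, the 5 members, mir-16-2 and mir-29a, the partners mir-143 and mir-203b, and the hairpins nearest to a member. The longest leftward lines belong to mir-10399 and mir-324.

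The scores are set out here by the size of the offset, the value by which the members were chosen. The 3 hairpins moved by 2 nt or more had DICER-WT scores of 0.698 to 0.964 and changes of -0.551 to -0.353. The 4 hairpins of the table moved by 1 nt include mir-29a and mir-16-2. Their DICER-WT scores were 0.199 to 0.506 and their changes -0.183 to 0.174. Over the 140 hairpins with offset 0 the DICER-WT scores ran from 0 to 0.685 and the changes from -0.405 to 0.931. Across the 7 hairpins Spearman's rho between the size of the offset and the DICER-WT score was 0.867, and that with the change was -0.906. Both are descriptions across hairpins scored in the same libraries, and the DICER-WT score enters both. The offset also chose these hairpins, 4 of which are tied at 1 nt. A score that counts distance from position 0 would rise with the offset by itself, so nothing is read from either rho. The sign of the offset did not part the members, since mir-10399 (-4) and mir-324 (3) had similar changes while mir-324 and mir-203a (1) had opposite ones.

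**Figure D3:**
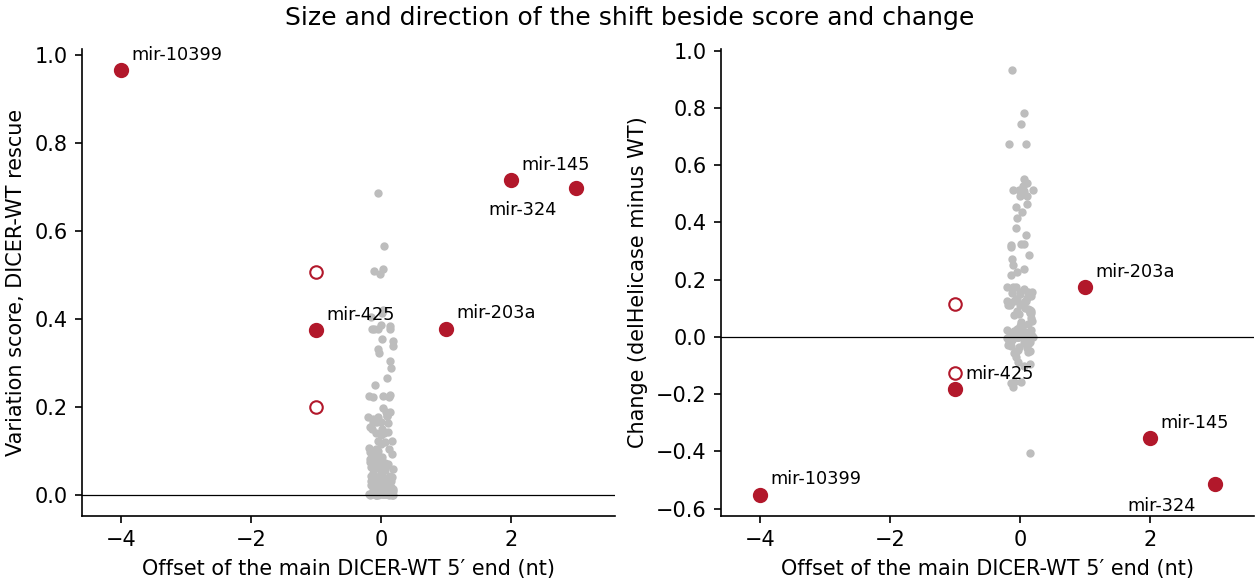
Offset in nt of the main 5′ end with DICER-WT (x axis) beside the DICER-WT score (left) and the change of the score, delHelicase minus WT (right), with members in red, mir-29a and mir-16-2 as open circles and the 140 hairpins with offset 0 in grey, spread sideways for display. Members at -4, 2 and 3 have the highest DICER-WT scores and changes of -0.353 or lower.

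High DICER-WT scores without a moved main end took both directions. Of the 14 hairpins with offset 0 that scored at least as high with DICER-WT as the lowest member, 5 had a lower score with DICER-delHelicase (35.7%) and 9 a higher one, with a median change of 0.147. mir-199a-1 and mir-199a-2 share a miRNA and have equal scores, and mir-101-1 and mir-101-2 share another, so these counts hold repeats. The highest of the 14, mir-505, mir-93 and mir-3928 (0.685, 0.564 and 0.513 with DICER-WT), all had lower scores, with changes of -0.0713, -0.0539 and -0.405. The 9 rises came at 0.507 or lower. mir-10399, mir-145 and mir-324 scored above all 14 with DICER-WT. The hairpins with offset 0 nearest to the members by both scores were mir-101-2 and mir-101-1 for mir-425, at distances of 0.0291 and 0.0357 on the scale of the score. For mir-203a they were mir-455 and mir-140, at 0.0488 and 0.146. mir-324 was nearest to mir-3928 (scores 0.513 and 0.108), at 0.201, and then to mir-101-1, at 0.315. The nearest to mir-145 and mir-10399 were mir-93 and mir-505, at 0.212 and 0.254 for mir-145 and at 0.411 and 0.344 for mir-10399. mir-10399 therefore had no close neighbour.

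The 2-nt class, a Yes or No entry derived from the DICER-WT isomiRs and not explained further in the header, was Yes for mir-10399 and mir-324 and No for mir-145, mir-425 and mir-203a. Of the 140 hairpins with offset 0, 69 had Yes. Members of either class were among those with lower scores, and the only member with a higher score had No.

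The hairpin sequences were not used to choose the members. In predicted minimum free energy folds the apical loop held 10 nt in mir-324, 12 nt in mir-425 and 13 nt in mir-145, and 6 nt in mir-10399 and mir-203a. The median of the 125 located hairpins with offset 0 was 6 nt (quartiles 4 and 9), and 22 of them (17.6%) had a loop of 10 nt or more. That share depended on the fold and was 24% in maximum expected accuracy folds and 32% in centroid folds, where 3 of the 5 members had such a loop as well. Both mir-16-2 (17 nt) and mir-29a (11 nt) were above that limit as well. Long loops were therefore present in 3 of the 5 members, and the member with the largest offset had a loop of the median size.

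The main DICER-WT end was paired in the predicted fold of all 5 members, as was the annotated end. The annotated end was paired in 107 of the 125 hairpins with offset 0 (85.6%), so the count in the members was near that of the other hairpins. Counted from the base that closes the loop on its 3′ side, the end went from position 6 to 2 in mir-10399, from 2 to 1 in mir-425, from 6 to 7 in mir-203a, from 2 to 4 in mir-145 and from 1 to 4 in mir-324. Among hairpins with offset 0, ends lay closer to the loop where the loop was longer (Spearman's rho -0.678 across 125 hairpins, a description), so each member was set beside the hairpins with offset 0 whose loop size differed by at most 1 nt. For mir-324 the annotated position 1 was found in 1 of 21 such hairpins and the main DICER-WT position 4 in 5 of 21, with a median of 3. For mir-145 the annotated position 2 was that of 9 of 12 hairpins, and all 12 lay closer to the loop than its main end. For mir-10399 the annotated position 6 equalled the median of 41 hairpins, and 40 of them lay farther from the loop than its main end at 2. Only in mir-324, of the 3 members with the larger offsets, did the main DICER-WT end lie nearer to the usual position than the annotated one. For mir-425, 9 of 15 hairpins had the annotated position 2 and 1 had position 1. For mir-203a, 9 of 41 had position 6 and 6 had position 7. These positions come from the minimum free energy folds, and those of mir-425 and mir-203a depended on the fold. In the maximum expected accuracy fold mir-425 had a loop of 14 nt and its end went from 1 to 0. In its centroid fold the loop held 24 nt and the end went from -2 to -3, inside the loop. The centroid fold of mir-203a had a loop of 9 nt and the end went from 4 to 5.

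**Figure D4:**
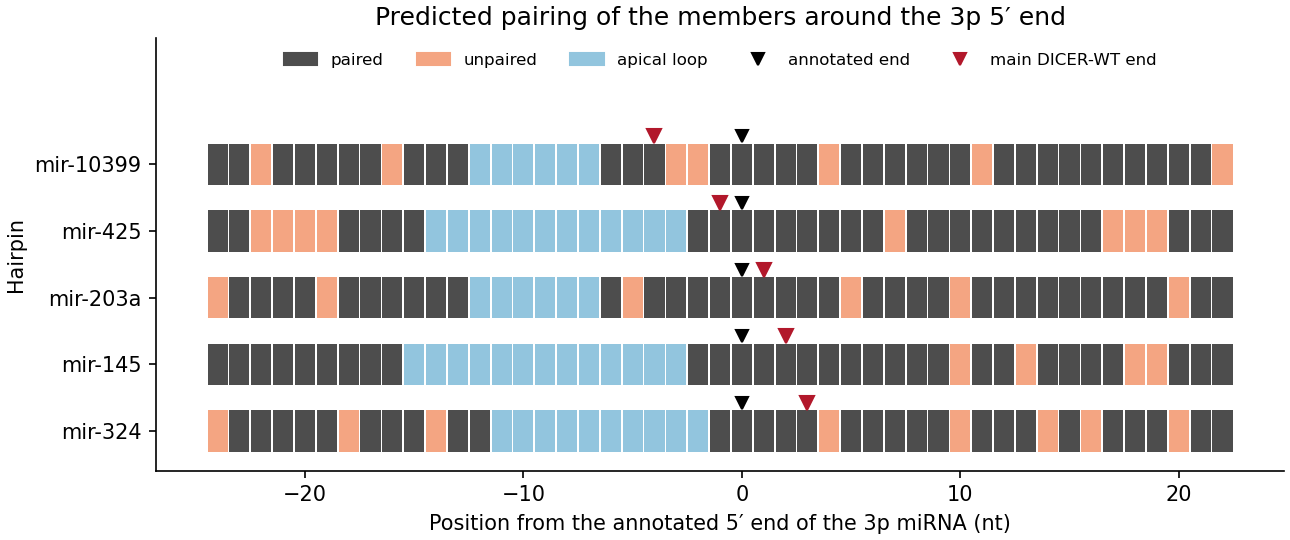
Predicted pairing (dark, paired; orange, unpaired; blue, apical loop) of the 5 members by position in nt from the annotated 5′ end of the 3p miRNA (x axis), with the annotated end (black triangle) and the main DICER-WT end (red triangle). The red triangle lies toward the loop in mir-10399 and mir-425 and away from it in the others.

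**Figure D5:**
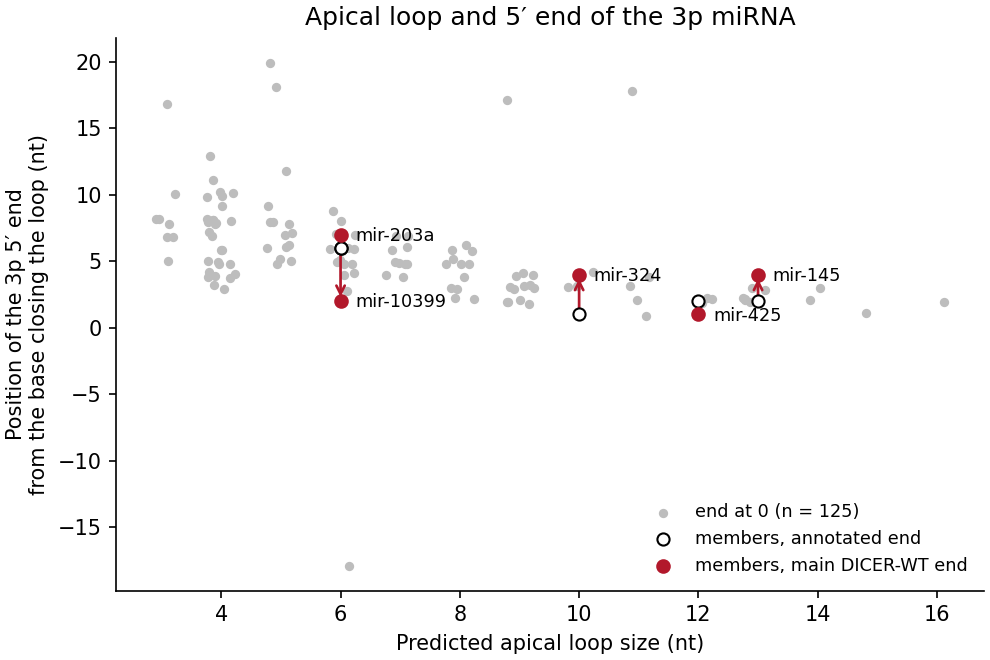
Predicted apical loop size in nt (x axis) and position of the 3p 5′ end from the base closing the loop, in nt (y axis), for 125 hairpins with offset 0 (grey, spread slightly for display) and for the members at the annotated (open) and main DICER-WT end (red), joined by arrows. The end of mir-10399 moves from 6 to 2, and those of mir-324 and mir-145 move to 4.

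For mir-425 no 5p miRNA was located by RefSeq name and sequence, so it is left out here. Both arms were located for mir-10399, mir-145, mir-324 and mir-203a. This allowed the overhang at the DICER cut to be derived from the minimum free energy fold, with the 5p miRNA kept as annotated. The 5p strand would extend past the annotated 3p end by 1, 2, 0 and 4 nt in that order. Past the main DICER-WT end it would extend by -2, 4, 4 and 6 nt. The 6 nt of mir-203a became 5 nt in the maximum expected accuracy and centroid folds, and the other values stayed the same. At the annotated end the overhang was 2 in 48 of 82 hairpins with offset 0. The ends of the 5p miRNAs in these cells are not in the table, so these overhangs are those of annotated strands and not of measured products. The table also holds no main 5′ end for DICER-delHelicase. Whether the lower scores of mir-10399, mir-324, mir-145 and mir-425 went with a main end at the annotated base or at the moved one could not be told from the scores.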

How the data were processed

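Small RNAs of 6 samples, 3 per DICER construct, were sequenced by the authors. Per the submitters' processing notes, the tools were cutadapt, Bowtie2 and bedtools and the build was GRCh38, with no versions or settings. The deposited table holds a variation score and an offset of the main 5′ end, a whole number, per the file headers, in 294 lines for 147 hairpins. How the authors combined the samples into a score is not stated.

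Scores were subtracted (delHelicase minus WT). Named hairpins were the 5 members, the 2 other hairpins with an offset, the 2 hairpins with offset 0 nearest to each member by both scores, and the cluster or antisense partners mir-143, mir-191 and mir-203b, of which 2 of 3 were in the table. Members, lists and comparisons were chosen with earlier results of these data known. The 3p miRNAs of 132 hairpins were located by RefSeq name, and hairpins were folded with ViennaRNA 2.7.2 and annotated with GENCODE 29. Loop size and end position were tested on 200 built hairpins with fully complementary stems and loops of A only, of which 200 were recovered. Such hairpins fold easily, so this checks the counting only. Bulges, competing folds and overhangs were not tried. Alternatives were a log2 ratio, other backgrounds, other folds and the opposite offset sign. No test was run, since values per sample were not in the table.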

Additional observations from a re-analysis of the deposited data

How the results depend on the processing

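Of 29 alternative values 25 kept their direction and stayed within 1.5 times the main value or, for shares, within its exact interval. Log2 ratios were compared by direction only. For scores above 0 a log2 ratio has the sign of the difference, so that agreement was fixed in advance. These ratios, and the count of lower scores taken from them, are among the 25 and add no support. With all 7 hairpins with an offset the median change of -0.353 became -0.183. Among the hairpins with offset 0 that scored as high with DICER-WT as the lowest member, the share with a lower delHelicase score was 35.7% instead of 23.6%. With the opposite sign of the offset 3 instead of 5 members had a paired main end; the cause of these differences was not tested. In the centroid fold the end of mir-425 was unpaired, which left 4 of 5 members with a paired end, against 87.2% of the hairpins with offset 0. The share of hairpins with offset 0 that had a loop of 10 nt or more went from 17.6% to 32% in that fold. The fold of the RefSeq hairpin and the alternatives for the first base were chosen after the table was seen. No paired analysis was possible because each construct has a single score per hairpin, so leaving out replicates was not run either. The unknown depth limits the reading of small differences between scores.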
